A study of Homo sapiens with 6 samples.

Results

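A group of 9 genes of bone morphogenetic protein (BMP) signalling was followed in SW480, a long-established human cell line from a colon adenocarcinoma. They were chosen by name and each matched 1 row of the deposited gene table, so 9 of 20289 genes are described. They are the ligand BMP4, the pseudoreceptor BAMBI, the inhibitory SMADs SMAD6 and SMAD7, the targets ID1, ID2 and ID3, and the targets MSX1 and MSX2. mRNA libraries were sequenced from 3 MUCP1-FLAG cultures, whose genotype and treatment are labelled as overexpression of the microprotein MUCP1 with a Flag tag. The 3 LV-NC cultures carry the labels wild type and no treatment beside LV-NC. All 6 cultures were of the same line and were kept in serum-supplemented L-15. The labels name no promoter, vector dose, clone or day, and MUCP1 matched 0 symbols of the table, which leaves its level unmeasured here. The comparison asks which genes differ with raised MUCP1.

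BMP ligands bind paired type I and type II receptor kinases. These phosphorylate SMAD1, SMAD5 and SMAD9, which enter the nucleus with SMAD4 and switch on ID genes, MSX genes and the inhibitory SMADs. ID proteins are helix-loop-helix proteins without a DNA-binding region that hold E proteins off DNA, and MSX proteins are homeobox repressors. In the colon, BMP signalling is known for acting on the differentiating upper crypt, while antagonists are made around the crypt base. ID2, MSX1, BAMBI and BMP4 have also been described as responsive to Wnt and beta-catenin.

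Library totals ran from 17333329 to 23282604 counts in MUCP1-FLAG and from 18867369 to 21534908 counts in LV-NC, and mitochondrially encoded transcripts took 5.91% to 6.24% of counts in MUCP1-FLAG and 6.105% to 6.61% in LV-NC. All 7 colon epithelial markers examined were above 1 CPM, with a summed level of 6875 to 7054 CPM in MUCP1-FLAG and 6393 to 7070 CPM in LV-NC. CPM are counts divided by TMM-scaled library sizes. Of these markers, 3 had non-overlapping groups with the lower values in MUCP1-FLAG: CDH1 had 14.7 to 15.2 CPM in MUCP1-FLAG and 30.7 to 31.9 CPM in LV-NC, EPCAM 198.5 to 208.0 and 248 to 264 CPM, and VIL1 12.5 to 14.7 and 16.0 to 19.3 CPM. Another 2 had non-overlapping groups with the higher values in MUCP1-FLAG: KRT18 had 2431 to 2544 CPM in MUCP1-FLAG and 2181 to 2382 CPM in LV-NC, and KRT19 558.6 to 596.6 and 480.9 to 557.1 CPM. KRT8 and CDX2 overlapped between the groups. Over all 12920 tested genes, 33.1% had groups that did not overlap. The part of the 5 markers with non-overlapping groups in the results below was not tested. The 5 fibroblast markers summed to 0.696 to 1.08 CPM in MUCP1-FLAG and 1.02 to 1.20 CPM in LV-NC, with COL1A2 and DCN at 0 in every library. The 4 blood markers summed to 0.305 to 0.564 CPM in MUCP1-FLAG and 0.367 to 0.556 CPM in LV-NC, with PTPRC at 0. The 4 endothelial markers summed to 2.26 to 4.17 CPM in MUCP1-FLAG and 2.41 to 3.30 CPM in LV-NC, all of it VWF, with PECAM1, CDH5 and KDR at 0.

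Of the 9 genes, 3 rose in MUCP1-FLAG cells and none fell. MSX1 was 2.13-fold and ID2 1.70-fold the LV-NC level, and BAMBI was higher by 16.0%. Their closest relatives did not pass the test: MSX2 had a log2 fold change of −0.07, ID1 of 0.17 and ID3 of −0.33. The ligand BMP4 and the inhibitory SMADs did not pass it either. No member was lower at an unadjusted p under 0.05 in edgeR (0 of 9), and DESeq2 and limma on FPKM also called 0 of 9 lower. All 9 genes passed the filter on low counts. The 3 of 9 called (33.3%) compare with 16.1% of all 12920 tested genes called in either direction, 8.35% higher and 7.71% lower, by edgeR's quasi-likelihood test at an adjusted p under 0.05. The CPM values of the 2 groups did not overlap for 3 of the 9 genes (33.3%), against 33.1% of all tested genes. The median log2 fold change was 0.10 over the 9 genes and −0.004 over all tested genes. The 9 genes were chosen with earlier results of these data known, so these shares and medians are no test of the group. In bulk RNA, a difference in the share of cells that express a gene and a difference in RNA per cell cannot be told apart.

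**Figure D1:**
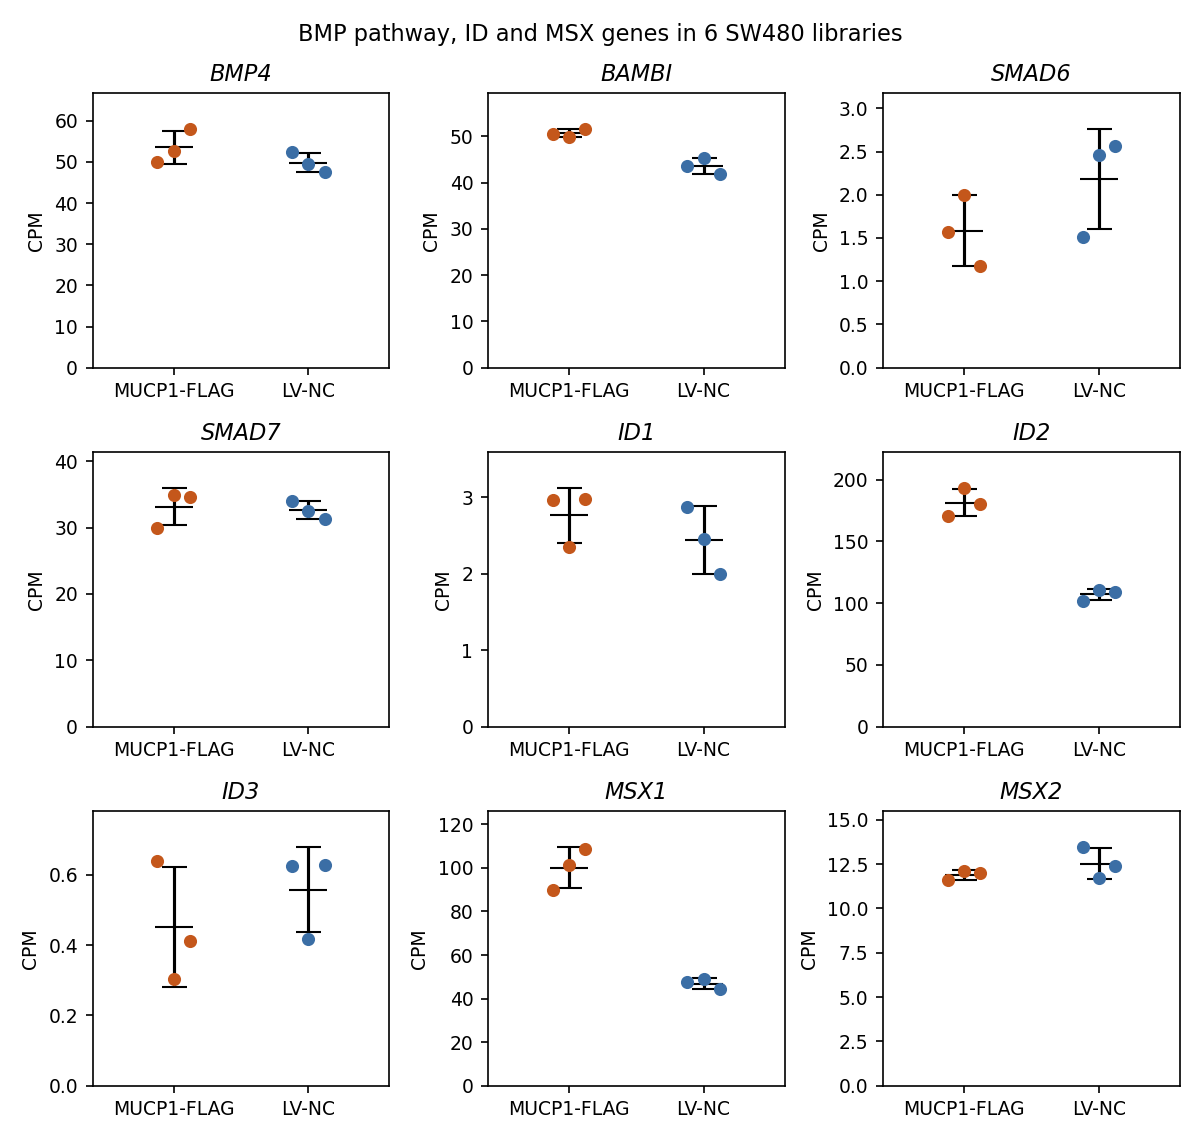
CPM of the 9 genes in each library, with MUCP1-FLAG left and LV-NC right in every panel and axes starting at 0. Points are libraries, and bars are the mean and SD of 3. The groups lie apart in the panels of BAMBI, ID2 and MSX1 and overlap in the other 6.

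The windows around the start sites of the genes that rose are shown with those of MSX2 and ID1, relatives that did not pass the test. Each runs from 250 bases before to 50 bases after a RefSeq transcript start on GRCh38.p14, on the gene's strand. Capitals mark GGCGCC, the core of a GC-rich element bound by SMADs, and CCAAT, a common proximal promoter box, on either strand.
MSX1, chr4:4859415-4859714, plus strand: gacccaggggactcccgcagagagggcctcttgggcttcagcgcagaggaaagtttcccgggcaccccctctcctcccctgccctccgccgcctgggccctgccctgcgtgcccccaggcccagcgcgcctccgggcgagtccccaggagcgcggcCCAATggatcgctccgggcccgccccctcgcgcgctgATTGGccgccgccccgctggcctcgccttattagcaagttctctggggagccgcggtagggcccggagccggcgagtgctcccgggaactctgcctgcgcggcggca
MSX2, chr5:174724332-174724631, plus strand: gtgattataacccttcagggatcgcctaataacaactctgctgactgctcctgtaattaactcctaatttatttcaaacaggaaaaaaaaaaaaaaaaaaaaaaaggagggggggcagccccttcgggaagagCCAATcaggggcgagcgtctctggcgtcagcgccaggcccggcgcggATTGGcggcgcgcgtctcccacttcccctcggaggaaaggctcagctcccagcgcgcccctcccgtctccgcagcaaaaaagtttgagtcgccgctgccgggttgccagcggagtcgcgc
ID2, chr2:8681806-8682105, plus strand: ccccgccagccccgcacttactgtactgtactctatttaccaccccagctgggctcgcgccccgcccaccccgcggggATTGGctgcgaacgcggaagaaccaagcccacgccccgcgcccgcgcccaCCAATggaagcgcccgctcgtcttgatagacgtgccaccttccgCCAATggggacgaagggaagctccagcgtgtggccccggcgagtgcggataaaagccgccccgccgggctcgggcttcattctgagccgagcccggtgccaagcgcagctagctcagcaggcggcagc
ID1, chr20:31605039-31605338, plus strand: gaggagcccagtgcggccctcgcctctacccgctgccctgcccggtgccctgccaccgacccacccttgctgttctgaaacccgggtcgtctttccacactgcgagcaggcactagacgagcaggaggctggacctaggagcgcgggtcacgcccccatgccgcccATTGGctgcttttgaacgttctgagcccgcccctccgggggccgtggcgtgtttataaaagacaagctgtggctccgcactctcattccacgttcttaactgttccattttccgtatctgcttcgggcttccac
BAMBI, chr10:28677271-28677570, plus strand: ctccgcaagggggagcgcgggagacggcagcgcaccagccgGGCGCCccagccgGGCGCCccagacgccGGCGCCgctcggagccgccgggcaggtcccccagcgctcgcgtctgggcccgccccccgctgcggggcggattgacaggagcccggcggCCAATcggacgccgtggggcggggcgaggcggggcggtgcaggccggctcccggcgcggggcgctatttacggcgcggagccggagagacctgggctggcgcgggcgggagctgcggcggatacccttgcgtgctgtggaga
The window of BAMBI held 3 GGCGCC matches and those of MSX1, MSX2, ID2 and ID1 held 0, where 19.2% of 35116 such windows held at least 1. That share is not matched for GC content. The same core was also found 2 times in window 3 of BMP4, a gene that did not pass the test and is not shown. It was therefore not limited to a gene that rose. The other windows of BMP4 and those of SMAD6 and SMAD7, also not shown, held 0 matches to it. G and C made up 80.0% of the BAMBI window, more than in 97.4% of all windows. They made up 74.7% for MSX1, 69.0% for ID2, 62.7% for ID1 and 57.0% for MSX2. CCAAT was found 2 times each for MSX1 and MSX2, 3 times for ID2 and 1 time each for ID1 and BAMBI. At least 1 CCAAT stood in 34.6% of all windows. Shorter motifs were common everywhere: AGAC, the SMAD box, was in 84.0% of windows and CANNTG, the E-box bound by E proteins, in 68.7%. AGAC on either strand was found 0 times for MSX1, 3 times for MSX2, 2 times for ID2, 3 times for ID1 and 4 times for BAMBI. CANNTG was found 1 time for ID2 and 0 times for the other 4. No match of one motif overlapped a match of another. The window of ID3, which also did not pass the test and is not shown, held 0 CCAAT, 0 GGCGCC, 0 CANNTG and 2 AGAC. These matches describe the letters of the windows and no binding was measured. Bases outside the windows were not searched, so 0 matches do not mean that a gene lacks the motif.

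Per gene length, ID2 was by far the most abundant of the 9 transcripts in both groups. Length-scaled levels are the authors' deposited FPKM (fragments scaled for gene length and library size). ID2 had 152 ± 12.8 FPKM in MUCP1-FLAG and 90.5 ± 5.37 FPKM in LV-NC (SD, n = 3 each). In MUCP1-FLAG, MSX1 followed with 51.3 ± 4.92 FPKM, then BMP4 with 31.2 ± 2.10 and BAMBI with 29.8 ± 0.690, whose libraries overlapped each other. In LV-NC the order after ID2 was BMP4 with 29.2 ± 1.42, BAMBI with 25.9 ± 0.921 and MSX1 with 24.3 ± 1.14 FPKM, with BAMBI and MSX1 overlapping. SMAD7 had 15.5 ± 1.61 FPKM in MUCP1-FLAG and 13.9 ± 0.564 FPKM in LV-NC, below these 4 genes in both groups. MSX2 came next with 5.75 ± 0.0643 and 6.46 ± 0.658 FPKM, then ID1 with 2.77 ± 0.366 and 2.45 ± 0.456 FPKM. SMAD6 (0.453 ± 0.169 and 0.660 ± 0.181 FPKM) and ID3 (0.473 ± 0.179 and 0.590 ± 0.130 FPKM) were lowest and could not be ordered, since their libraries overlapped within each group. ID2 made up 97.9% ± 0.474 of the summed FPKM of ID1, ID2 and ID3 in MUCP1-FLAG and 96.7% ± 0.681 in LV-NC. MSX1 made up 89.9% ± 0.798 of the summed FPKM of MSX1 and MSX2 in MUCP1-FLAG and 79.0% ± 2.26 in LV-NC.

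**Figure D2:**
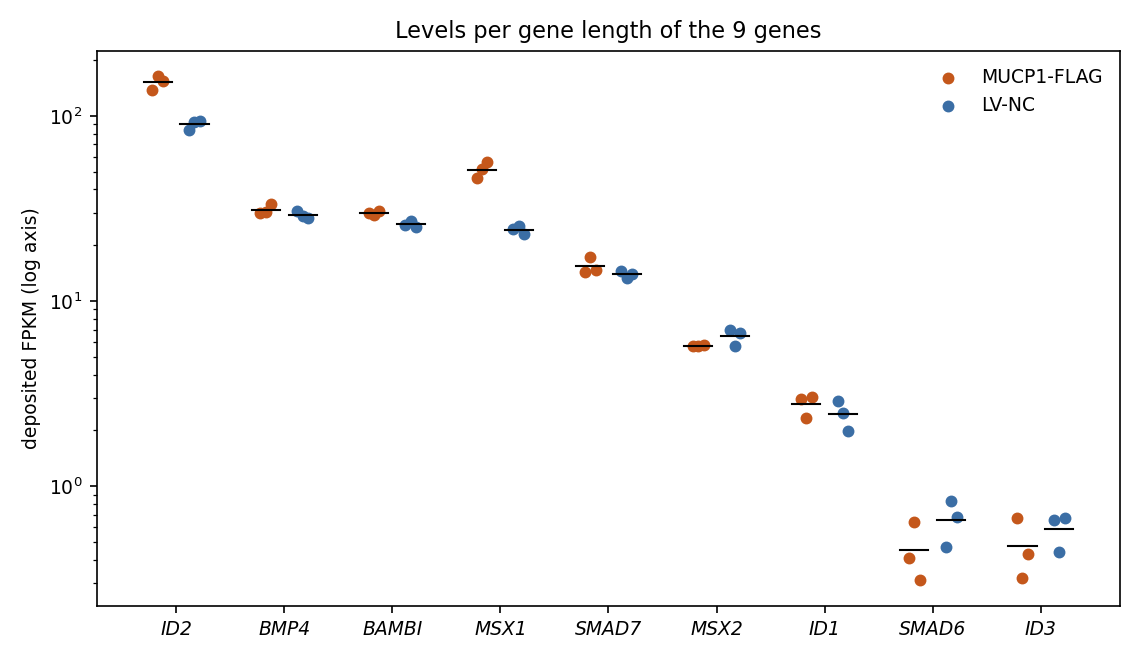
Deposited FPKM of the 9 genes on a log axis, ordered by their LV-NC mean, with MUCP1-FLAG left of LV-NC for each gene. Points are libraries and lines are means of 3; ID2 is highest in both groups, and MSX1 averages 51.3 FPKM in MUCP1-FLAG and 24.3 FPKM in LV-NC.

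BMP4 encodes the ligand. Its 3 MUCP1-FLAG libraries had 49.97, 52.7 and 57.9 CPM, against 52.4, 49.6 and 47.6 CPM in LV-NC. The groups overlapped, and the highest library was 1 of MUCP1-FLAG. The log2 fold change was 0.10 ± 0.07 (SE; 95% interval −0.03 to 0.24; edgeR adjusted p 0.319), and it ran from 0.042 (without MUCP1-FLAG replicate 3) to 0.145 (without MUCP1-FLAG replicate 1) with 1 library left out. The gene (ENSG00000125378) lies on chromosome 14 at 53949736 to 53958761 on the minus strand in GENCODE 29, which uses GRCh38, the build in the submitters' processing notes.

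BAMBI resembles a type I receptor without its kinase and blocks ligand signalling at the membrane. It had 50.6, 49.8 and 51.5 CPM in MUCP1-FLAG, against 43.6, 45.4 and 41.8 CPM in LV-NC. Every MUCP1-FLAG library was above every LV-NC library. The difference was 0.21 ± 0.06 on the log2 scale (adjusted p by edgeR 0.0196). The authors' deposited table gave 0.20, the log2 ratio of mean FPKM, with an adjusted p of 0.0450 from an unnamed test. The call rests on every MUCP1-FLAG library: the edgeR adjusted p was 0.0631, 0.0536 and 0.0955 without replicate 1, 2 or 3 of that group. On log2(FPKM + 1) and log2(FPKM + 0.1) limma gave adjusted p-values of 0.0518 and 0.0533. BAMBI (ENSG00000095739) spans chromosome 10 from 28677342 to 28682939 on the plus strand.

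SMAD6 and SMAD7, the inhibitory SMADs that bind activated receptors and act as feedback, did not pass the test. SMAD7 had 30.0, 34.9 and 34.6 CPM in MUCP1-FLAG, against 34.0, 32.5 and 31.3 CPM in LV-NC. Both the lowest and the highest values were in MUCP1-FLAG. Its difference was 0.03 ± 0.08 (95% interval −0.13 to 0.18; edgeR adjusted p 0.844), and the sign was negative without MUCP1-FLAG replicate 2 (−0.01) or replicate 3 (−0.003). SMAD6 was low, with 27, 46 and 23 counts in MUCP1-FLAG and 29, 53 and 49 counts in LV-NC, or 1.57, 2.003 and 1.18 CPM in MUCP1-FLAG against 1.51, 2.46 and 2.57 CPM in LV-NC. The groups overlapped through LV-NC replicate 1. Its log2 fold change of −0.45 ± 0.27 had a 95% interval of −1.01 to 0.11 and an edgeR adjusted p of 0.282. At this depth the interval spans 0.497-fold to 1.08-fold. With 1 library left out the SMAD6 value ran from −0.67 (without MUCP1-FLAG replicate 2) to −0.28 (without MUCP1-FLAG replicate 3). SMAD7 (ENSG00000101665) lies on chromosome 18 at 48919853 to 48952052 and SMAD6 (ENSG00000137834) on chromosome 15 at 66702228 to 66782848.

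ID2 had 171, 193 and 181 CPM in MUCP1-FLAG, against 102, 111 and 109 CPM in LV-NC. The groups lay far apart, with each spread small beside the gap between them. Its log2 fold change was 0.76 ± 0.05 (edgeR adjusted p 2.9e-09), the 83rd largest among the 1079 genes called higher. The authors' deposited table gave 0.75 with an adjusted p of 1.44e-34. With 1 library left out the value ran from 0.72 to 0.80, and the largest adjusted p over the 14 alternatives was 0.000257. ID2 (ENSG00000115738) spans chromosome 2 from 8678845 to 8684453 on the plus strand, and its exons share 38 bases with the antisense gene ID2-AS1, which is not in the table. Without a stated strand setting, reads in those bases cannot be assigned.

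ID1, a classic BMP target gene, had 51, 54 and 58 counts in MUCP1-FLAG and 55, 53 and 38 counts in LV-NC. In CPM these were 2.96, 2.35 and 2.97 in MUCP1-FLAG, against 2.87, 2.46 and 1.99 in LV-NC. The groups overlapped, and the log2 fold change of 0.17 ± 0.21 had a 95% interval of −0.27 to 0.61 and an edgeR adjusted p of 0.647. ID3 had 11, 7 and 8 counts in MUCP1-FLAG and 12, 9 and 12 counts in LV-NC, which is close to the filter. Its log2 fold change of −0.33 ± 0.44 had a 95% interval of −1.25 to 0.59 and an edgeR adjusted p of 0.672. With 1 library left out the log2 fold change ran from 0.048 (without LV-NC replicate 3) to 0.298 (without LV-NC replicate 1) for ID1, and from −0.64 (without MUCP1-FLAG replicate 1) to −0.09 (without MUCP1-FLAG replicate 2) for ID3. With all libraries, the upper bounds for both lie below the ID2 estimate. ID1 (ENSG00000125968) lies on chromosome 20 at 31605283 to 31606515 and ID3 (ENSG00000117318) on chromosome 1 at 23557918 to 23559794.

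MSX1 showed the largest difference of the 9 genes. It had 90.0, 102 and 109 CPM in MUCP1-FLAG, against 47.5, 49.0 and 44.2 CPM in LV-NC. Every MUCP1-FLAG library was well above every LV-NC library. The log2 fold change of 1.09 ± 0.07 (edgeR adjusted p 5.18e-10) was the 37th largest among the 1079 genes called higher, and the authors' deposited table gave 1.08 with an adjusted p of 1.21e-42. With 1 library left out it ran from 1.03 to 1.16, and the largest adjusted p over the 14 alternatives was 6.09e-05. MSX1 (ENSG00000163132) spans chromosome 4 from 4859666 to 4863936 on the plus strand.

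MSX2, the other MSX gene in the group, had 11.6, 12.1 and 11.999 CPM in MUCP1-FLAG, against 13.5, 11.7 and 12.4 CPM in LV-NC. The MUCP1-FLAG libraries lay within 1 CPM of each other, and the groups overlapped. Its log2 fold change of −0.07 ± 0.10 had a 95% interval of −0.27 to 0.13 and an edgeR adjusted p of 0.678, and with 1 library left out it ran from −0.118 to −0.018. The 95% interval holds no rise of the size seen for MSX1. MSX2 (ENSG00000120149) lies on chromosome 5 at 174724533 to 174730893.

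**Figure D3:**
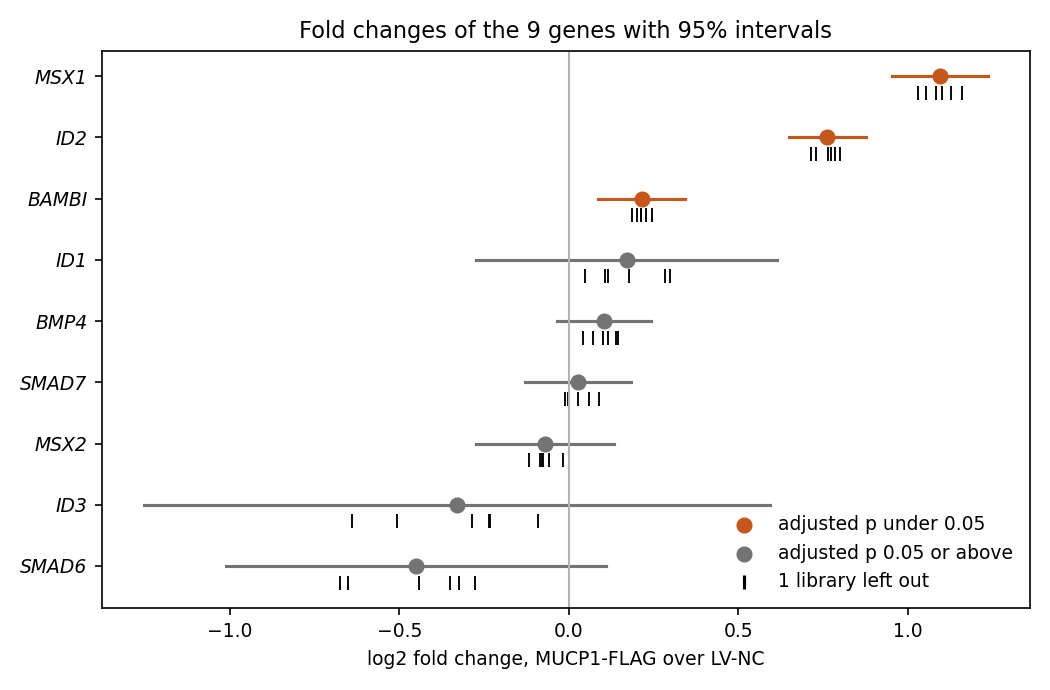
Log2 fold change of MUCP1-FLAG over LV-NC for each gene (points) with its 95% interval (lines), and the value with each of the 6 libraries left out in turn (ticks). Orange marks an edgeR adjusted p under 0.05: MSX1 at 1.09, ID2 at 0.76 and BAMBI at 0.21.

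Ratios of paralogues within a library do not depend on library size. The log2 ratio of MSX1 to MSX2 counts was 2.96, 3.07 and 3.18 in MUCP1-FLAG, against 1.82, 2.06 and 1.83 in LV-NC, a difference of 1.16. The log2 ratio of ID2 to ID3 was 8.07, 9.31 and 8.78 in MUCP1-FLAG against 7.35, 8.05 and 7.44 in LV-NC. That of ID1 to ID2 was −5.85, −6.36 and −5.92 in MUCP1-FLAG against −5.15, −5.49 and −5.77 in LV-NC. These 3 ratios separated the groups, each with an exact two-sided permutation p of 0.1, the smallest that 3 against 3 libraries allow, and 0.167 adjusted over the 5 ratios examined. With FPKM in place of counts the groups stayed apart for MSX1 to MSX2 (exact permutation p 0.1) but overlapped for ID1 to ID2 and for ID2 to ID3 (exact permutation p 0.2 for both). The ratio of ID1 to ID3 differed by 0.53 (exact permutation p 0.2) and that of SMAD6 to SMAD7 by −0.48 (exact permutation p 0.3), with overlapping groups. No ratio could pass 0.05 in this design.

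Among all genes with a mean of at least 2 CPM, 5 had the profile nearest to that of MSX1, by Euclidean distance of gene-centred log2 CPM over the 6 libraries. IGFBP7, a secreted IGF-binding protein family member, was nearest at 0.197, with a log2 fold change of 1.18 ± 0.06. The acute-phase gene SAA2 followed at 0.250, the interferon-inducible IFI27 at 0.260, the farnesyl diphosphate synthase gene FDPS at 0.272 and RUBCNL at 0.275. Reads of SAA2 may be shared with its near-identical copy SAA1. Of the other 8 members ID2 was nearest to MSX1, at 0.455, and the next, BAMBI, stood at 1.09. The profiles were centred but not scaled, so genes with a fold change like that of MSX1 lie near it by construction. These distances describe the libraries and carry no test.

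The rest of the pathway was called about as often as other genes. Of 63 other BMP pathway genes listed by role, all were in the table, 35 passed the low-count filter, 2 rose and 4 fell. The 6 called are 17.1% of the 35, beside the 16.1% of all tested genes. The median log2 fold change of the 35 was −0.08. The other 28 were too low to test, and 10 of them had 0 counts in every library, which allows up to 0.174 CPM per library at 3 counts. ID4, the remaining ID gene, was 1 of these 10. An unadjusted p under 0.05 was common over all genes. The E protein gene TCF3, with an unadjusted edgeR p of 0.0499, ranked 3796th by p among the 12920 tested genes. The counts at an unadjusted p under 0.05 given by role below are to be read beside that rank.

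Among 5 tested ligands 2 fell and 0 rose in both edgeR and DESeq2, and at an unadjusted p under 0.05 edgeR had 1 higher, BMP7, and the same 2 lower. BMP6 had 4.52, 3.004 and 5.03 CPM in MUCP1-FLAG, against 6.62, 7.23 and 6.49 CPM in LV-NC. All MUCP1-FLAG values were below all LV-NC values (log2 fold change −0.71 ± 0.17, edgeR adjusted p 0.0051). BMP2 had 1.39, 1.31 and 1.64 CPM in MUCP1-FLAG, against 3.65, 2.36 and 2.09 CPM in LV-NC, and its difference on the log2 scale was −0.90 ± 0.26 (adjusted p 0.0187, edgeR). LV-NC replicate 1 was highest; without it the adjusted p was 0.124 and the log2 fold change −0.63, and without MUCP1-FLAG replicate 1 or 2 the adjusted p was 0.0558 or 0.0809. With limma on log2(FPKM + 0.1) the adjusted p was 0.0617 for BMP6 and 0.0808 for BMP2, and on log2(FPKM + 1) it was 0.0862 for BMP2. Per length BMP7 was the most abundant of the other ligands, with 33.9 FPKM in MUCP1-FLAG and 30.0 FPKM in LV-NC, and is named here after its values were seen. Its log2 fold change was 0.13 ± 0.06 (edgeR adjusted p 0.113).

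Of 6 tested receptors and co-receptors 1 fell and 0 rose in edgeR and DESeq2, with the same counts at an unadjusted p under 0.05. ACVR2B, a type II receptor shared with activins, had 9.10, 9.66 and 10.3 CPM in MUCP1-FLAG, against 12.9, 12.5 and 14.8 CPM in LV-NC. The groups lay apart, at −0.47 ± 0.10 on the log2 scale (adjusted p 0.00355, edgeR), while limma on log2(FPKM + 1) gave 0.11 and on log2(FPKM + 0.1) 0.139. Of 3 tested SMADs edgeR and DESeq2 called 0, and 1, SMAD1, was higher at an unadjusted p under 0.05; limma on FPKM called 1 higher. SMAD1, which carries the BMP signal, had 26.96, 25.99 and 25.4 CPM in MUCP1-FLAG against 22.5, 23.3 and 22.7 CPM in LV-NC (0.19 ± 0.07, edgeR adjusted p 0.0857), and SMAD5, its close relative, had −0.004 ± 0.06 (edgeR adjusted p 0.973). SMAD4, the shared partner of the signalling SMADs, is named after its values were seen: it had 1.04, 1.13 and 1.44 CPM in MUCP1-FLAG and 0.886, 1.62 and 1.10 CPM in LV-NC. Per length it had 0.760 FPKM in MUCP1-FLAG and 0.583 FPKM in LV-NC, near SMAD6, and the groups overlapped (−0.01 ± 0.31, edgeR adjusted p 0.989).

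Of 5 tested extracellular antagonists 0 were called by edgeR, DESeq2 or limma on FPKM, and 0 had an unadjusted p under 0.05 in edgeR. CHRD, which encodes the ligand trap chordin, had 0.52 ± 0.28 (edgeR adjusted p 0.233) and FSTL3, a follistatin-like trap, −0.13 ± 0.08 (0.314). Of 8 intracellular regulators 1 rose and 1 fell in edgeR, and at an unadjusted p under 0.05 there were 1 higher and 4 lower. The lower 4 were SMURF1, SMURF2 (edgeR adjusted p 0.131), SKI (0.0507) and SKIL (0.095). SMURF1, a ubiquitin ligase for BMP SMADs and receptors, had 89.3, 88.8 and 86.0 CPM in MUCP1-FLAG, against 108, 107 and 99.3 CPM in LV-NC. The groups did not overlap, with a log2 fold change of −0.25 ± 0.05 and an edgeR adjusted p of 0.00247. FKBP1A, which encodes the type I receptor inhibitor FKBP12, had 238.5, 253 and 246 CPM in MUCP1-FLAG against 224, 226 and 214 CPM in LV-NC (0.15 ± 0.05, edgeR adjusted p 0.0285). Its adjusted p was 0.148 without MUCP1-FLAG replicate 2, 0.109 without MUCP1-FLAG replicate 3, 0.0738 without LV-NC replicate 2, and 0.0822 and 0.0861 with limma on log2(FPKM + 1) and log2(FPKM + 0.1).

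Among 6 tested other targets 1 rose and 0 fell in edgeR, DESeq2 and limma on FPKM, and at an unadjusted p under 0.05 edgeR had 2 higher and 0 lower. RUNX2, the osteoblast factor known as a BMP-responsive gene, had 98.3, 103 and 102 CPM in MUCP1-FLAG, against 69.8, 76.0 and 76.6 CPM in LV-NC. Its groups lay clearly apart (0.45 ± 0.06, edgeR adjusted p 7.09e-06). Of the E proteins, which ID proteins bind, TCF3 had 0.13 ± 0.06 (edgeR adjusted p 0.17) and TCF12 0.07 ± 0.06 (edgeR adjusted p 0.489). Neither passed the test in edgeR, DESeq2 or limma on FPKM, and 1 of the 2, TCF3, was higher at an unadjusted p under 0.05 in edgeR.

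**Figure D4:**
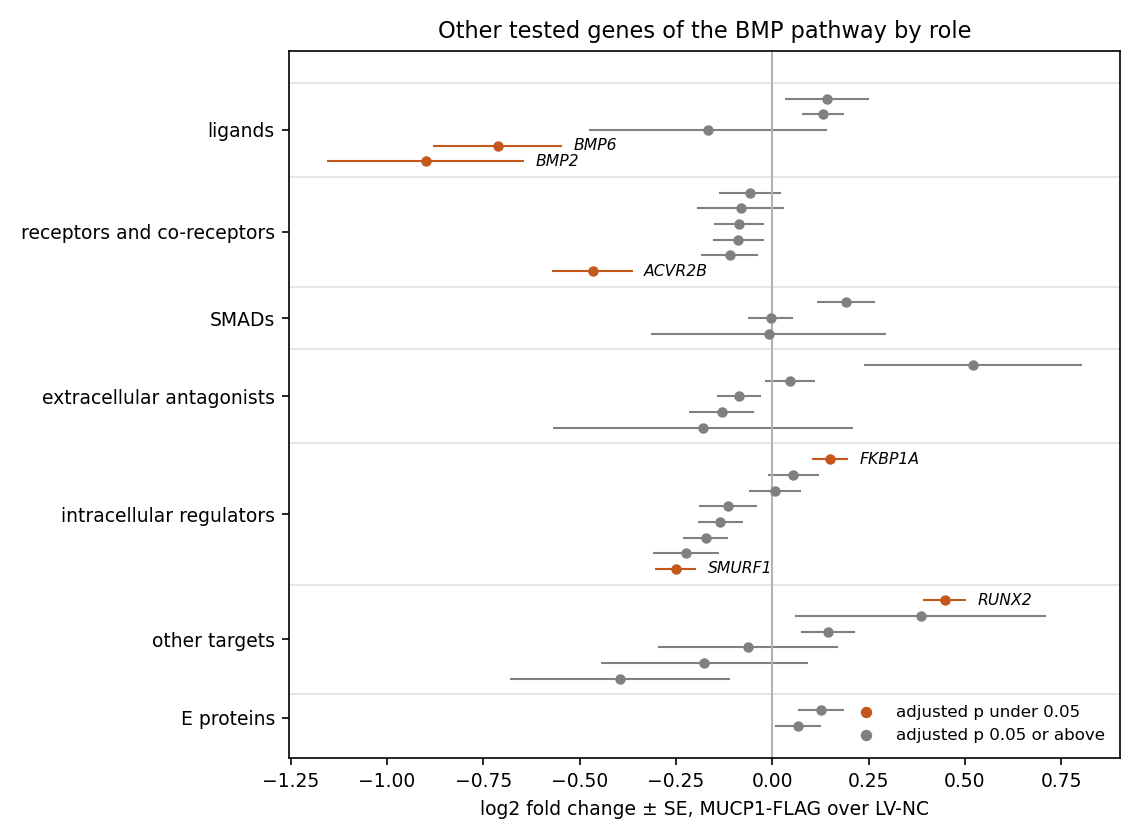
Log2 fold change of MUCP1-FLAG over LV-NC, with its SE, for the 35 tested genes of the pathway beyond the 9, grouped by role. Orange marks an edgeR adjusted p under 0.05: RUNX2 and FKBP1A were higher, and BMP2, BMP6, ACVR2B and SMURF1 lower.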

How the data were processed

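Per the file headers, the authors deposited whole-number read counts and FPKM values per gene for each of 6 libraries. They also deposited a log2 fold change, a p-value and an adjusted p-value per gene, from a test that the labels and headers do not name. Tools listed without versions in the submitters' processing notes are fastp, HISAT2, featureCounts and DESeq2, with build GRCh38. The 9 genes, the other pathway genes and the tests were chosen with earlier results of these data known. All 20289 genes were filtered with filterByExpr (minimum count 10), and 12920 were tested with edgeR 4.0.16 in R 4.3.3 (TMM, robust quasi-likelihood F test, Benjamini-Hochberg over all tested genes, threshold 0.05). The fit was tested on simulated counts with the same dispersion for all genes. It called 91 of 100 genes changed 1.5-fold, 98 of 100 changed 2-fold and 9 of 12649 unchanged genes. Changes below 1.5-fold and changes in low-count genes were not simulated, so recovery of such changes is not known. A standard error is the log2 fold change divided by the square root of F, and CPM used the TMM-scaled library sizes of the fit. Alternatives were RLE scaling, DESeq2 1.42.0, other filters, limma 3.58.1 on FPKM, a replicate block, and each library left out. The p-values of edgeR, DESeq2 and limma measure the spread between 3 libraries per group, estimated with information shared across genes. The labels call these libraries biological replicates but name no clone. Whether the p-values cover the spread between separately made cell populations is not known. Within groups, no pair of libraries agreed within sampling noise (chi-square per degree of freedom 2.58 to 8.22). Named pathway genes were those called and, in a role with none called, the 2 with the smallest p. Start-site windows came from RefSeq (GRCh38.p14), with all 9 genes matched, and gene positions from GENCODE 29.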

Additional observations from a re-analysis of the deposited data

How the results depend on the processing

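MSX1 and ID2 stayed higher and called under all 14 alternatives, while BAMBI missed the threshold on log2(FPKM + 1) (log2 fold change 0.19, adjusted p 0.0518), on log2(FPKM + 0.1) (0.20, 0.0533) and without any single MUCP1-FLAG library; leaving out each library gave it 0.19 to 0.25. SMAD7 changed sign without MUCP1-FLAG replicate 2 (−0.011) or 3 (−0.003), with 0.089 as the highest value with a library left out. The members called higher numbered 2 or 3 throughout. Over all genes, limma on log2(FPKM + 1) called 517 higher and 553 lower, and on log2(FPKM + 0.1) 510 and 543, against 1079 and 996; leaving out a library gave 639 to 1323 higher and 624 to 1213 lower. Of the other pathway genes, 1 to 4 were higher and 3 to 5 lower with a library left out, and by limma 2 were lower with a pseudocount of 1 FPKM and 1 with 0.1. ID3 and SMAD6 could not be tested with a filter of 50 counts in 3 libraries. The causes were not tested. Same-numbered libraries of the groups barely deviated together (correlations of 0.0351, 0.0498 and 0.0024 across genes). Libraries with different numbers were not compared, so these values cannot show whether the cultures were handled in pairs. With the replicate number as a block, 1005 genes were higher and 954 lower, and the same 3 of the 9 genes were called. The paralogue ratios kept their sign with FPKM or with any library left out, alternatives chosen after seeing the data, but by FPKM the groups overlapped for ID1 to ID2 and ID2 to ID3 (exact permutation p 0.2 for both). Low counts limit ID3, ID1 and SMAD6.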
